A study of Mus musculus with 30 samples.

Results

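Aminoacyl-tRNA synthetase genes were followed through the RNA-seq profiles of sorted interneurons of the mouse medial prefrontal cortex. The members were the 37 rows of the expression table whose gene symbol names a synthetase or one of its subunits, out of 23993 genes in all. They comprised 21 genes of cytosolic enzymes and 16 genes of mitochondrial enzymes. The mice carried *Sst*-Cre or *Pvalb*-Cre together with the Cre-dependent Ai9 tdTomato reporter, were heterozygous, were labelled C57BL/6, and by the study's methods were adolescents to young adults. tdTomato therefore marks every cell that has expressed the Cre driver, and tagged cells were collected by fluorescence-activated sorting. The 24 libraries came from nonstressed Sst females (7), nonstressed Sst males (7), Sst males after 14 days of chronic unpredictable stress (CUS; 3) and nonstressed Pvalb males (7). The labels describe 30 samples, of which 6, all from females, were not analysed here. The labels do not say whether libraries came from separate animals, so p-values measure the spread between these samples, which may be technical.

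Aminoacyl-tRNA synthetases join each amino acid to its matching tRNA and so supply the ribosome with its building blocks. Most amino acids have a cytosolic enzyme and a separate nuclear-encoded enzyme that is imported into mitochondria, where it serves the translation of respiratory chain subunits. Several cytosolic enzymes are held together in the multisynthetase complex, and the transcription factor ATF4 is known to raise many cytosolic synthetase genes when amino acids are short or the endoplasmic reticulum is stressed. *Gars* and *Kars* are exceptions to the division, since each encodes both forms of its enzyme.

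Values are FPKM, that is, fragments scaled to transcript length and to the mapped fragments of the library, so that levels can be set side by side between genes. No read counts accompany them. SST0-M and SST1-M were nearly the same library, with an SD of 0.0212 for their gene-wise log2 ratio, and so were PV0-M and PV2-M with 0.0170. The next-closest pairs of those groups stood at 0.267 and 0.225. Each near-identical pair was averaged and counted as 1 sample, which left 22. The averaged Pvalb sample lay closer to the 9 other Sst samples with short titles (SD of the log2 ratio 0.63 to 0.71) than to the 5 other Pvalb samples (0.73 to 0.81). Xist stood at 300.2 to 333.1 FPKM in 3 libraries labelled male (PV1-M, PV4-M and PV5-M). Sample titles are of a short kind (SST3-M) or a long kind (SS04031R, SST040241L and SST04241LL among the controls, and the 3 CUS samples). Small nucleolar and Cajal-body RNAs took 53.5 to 75.7% of total FPKM in the 6 long-titled libraries and 1.87 to 8.29% in the others, so comparisons were kept within a kind of title. Of the labelled cell type, 10 interneuron markers summed to a median of 191.3 FPKM and *Sst* itself reached at most 49.3 FPKM, whereas 12 microglial markers summed to 2781 to 8588 FPKM. In such bulk samples, fewer cells of a type and less RNA per cell cannot be told apart.

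All 21 cytosolic genes were detected above 0.4 FPKM in every sample. Their median levels over the 22 samples ran from 3.79 to 56.3 FPKM with a midpoint of 11.8, beside 7.38 for all 14566 expressed genes. *Nars*, which charges asparagine tRNA, was the highest cytosolic member at 56.3 FPKM. It was followed by *Eprs*, the fused enzyme for glutamate and proline, at 20.3 FPKM and by *Iars*, the isoleucine enzyme, at 19.5 FPKM. The lowest were *Farsa*, a subunit of the phenylalanine enzyme, at 8.54 FPKM, the valine enzyme *Vars* at 4.30 FPKM, and *Tarsl2*, a second threonine enzyme, at 3.79 FPKM. The 8 members of the multisynthetase complex (*Dars*, *Eprs*, *Iars*, *Kars*, *Lars*, *Mars*, *Qars* and *Rars*) kept to a narrower band of medians, 10.9 to 20.3 FPKM. The dual-function genes *Gars* and *Kars* had medians of 13.3 and 11.8 FPKM and sat among the other cytosolic genes.

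Mitochondrial members were lower, with a midpoint of 4.66 FPKM. Of these 16 genes, 9 had a median below 5 FPKM and 12 passed 0.4 FPKM in every sample. *Lars2*, the leucine enzyme, stood far above the rest and is described separately. *Fars2* (phenylalanine) and *Iars2* (isoleucine) came next at 15.4 and 9.55 FPKM. *Aars2* (alanine), *Pars2* (proline) and *Ears2* (glutamate) were lowest at 2.01, 1.62 and 1.47 FPKM. Cytosolic and mitochondrial genes for the same amino acid were set in 16 pairs. *Eprs* served as the partner of both *Ears2* and *Pars2*, and *Farsa* as that of *Fars2*. The cytosolic gene had the higher median in 14 pairs, and the middle ratio of the pairs was 2.11. The cytosolic gene was higher in each of the 22 samples for 6 pairs, which were those of *Aars2*, *Ears2*, *Iars2*, *Mars2*, *Nars2* and *Pars2*. The widest of the 14 was *Nars* over *Nars2*, a ratio of 26.6. *Fars2* exceeded *Farsa* in 17 of the 22 samples, and *Lars2* exceeded *Lars* wherever it was not listed at 0. *Farsb*, the other subunit of the cytosolic phenylalanine enzyme, was not used in the pairs. Its group median was above that of *Fars2* in Sst females (14.6 and 10.3 FPKM), short-titled Sst males (13.7 and 6.19) and Pvalb samples (15.1 and 12.4). It was below in long-titled controls (7.18 and 27.4 FPKM) and CUS samples (6.92 and 29.8).

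**Figure D1:**
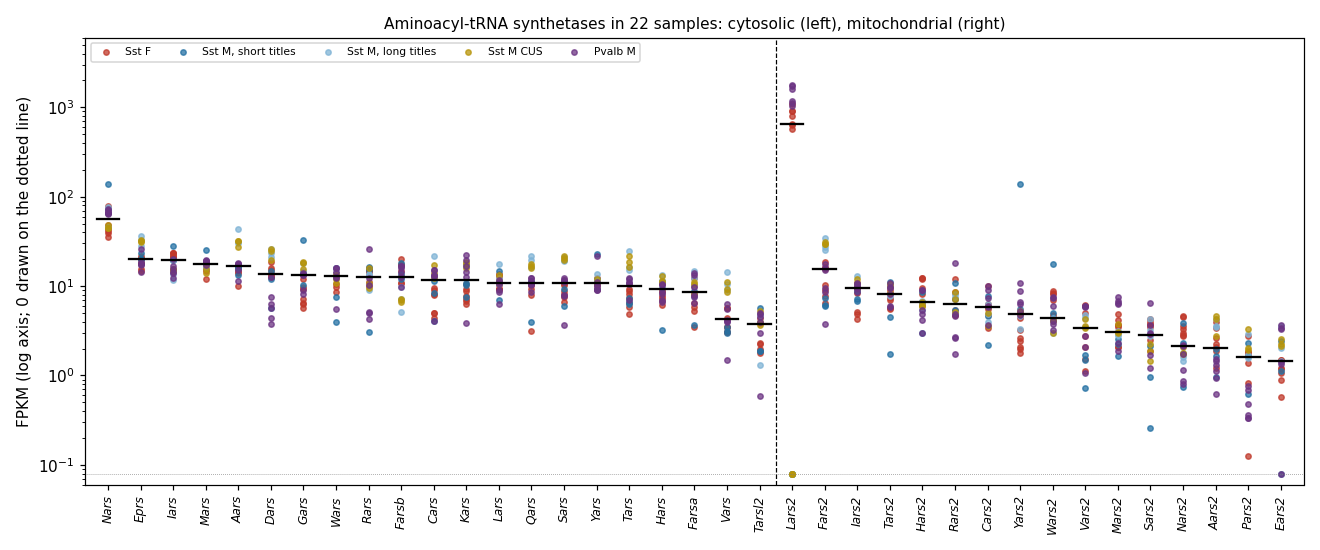
Level of each of the 37 members in the 22 samples, in FPKM on a log axis, with cytosolic genes left and mitochondrial genes right of the dashed line. Points are samples coloured by group, black bars are medians over all samples, and values of 0 are drawn on the dotted line. Cytosolic medians lie between 3.79 and 56.3 FPKM, and *Lars2* is either above 579 FPKM or at 0.

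*Lars2* (GRCm38.p6 chr9:123366927-123462675) divided the samples without any overlap. It was listed at 0 in all 10 libraries of Sst males, the 3 CUS libraries included. In the 7 Sst females it ran from 579.2 through a median of 808.3 to 1095 FPKM, and in the Pvalb samples from 1026 through 1383 to 1758 FPKM. The zeros followed the Sst male label across both kinds of title and both stress conditions, and the Pvalb libraries labelled male did not share them. In all, 9 genes of the table had this pattern, and *Lars2* was the 1 member among them. An exact 0 in a table of FPKM is reported only as listed at 0, and no fold was taken. The pattern was sought after the values had been seen.

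*Yars2* (chr16:16302965-16309640), the mitochondrial tyrosine enzyme, was set apart by 1 sample. It stood at 139.7 and 139.9 FPKM in the near-identical libraries SST0-M and SST1-M. No other sample passed 10.9 FPKM, which leaves the pair 12.9-fold above the next. The cytosolic *Yars* reached 22.6 FPKM in the same sample, close to the 21.9 FPKM of the averaged Pvalb sample. In that Sst pair 39 genes lay more than 10-fold above all other samples, and *Yars2* was the 1 member among them.

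**Figure D2:**
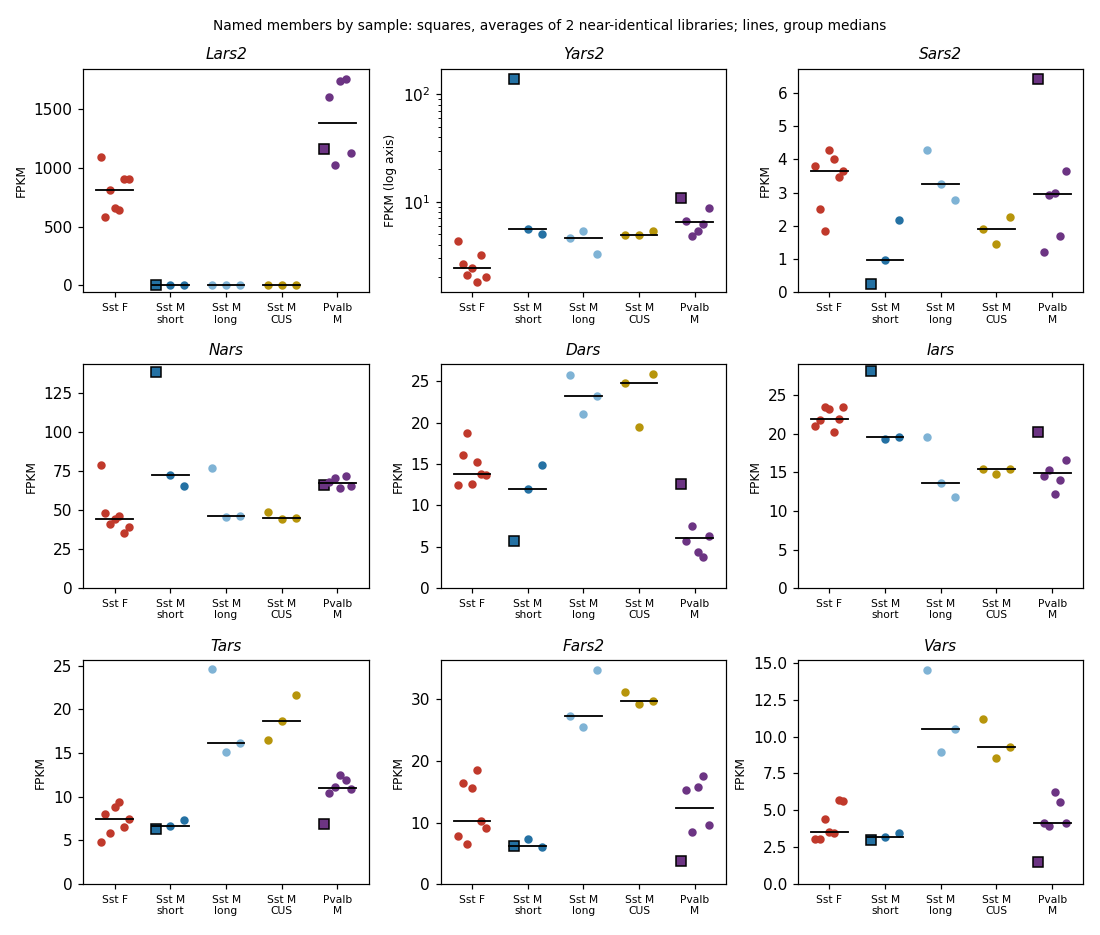
FPKM of 9 named members by group, with circles for samples, squares for the averages of near-identical libraries and bars for group medians. The axis is logarithmic for *Yars2* and linear otherwise, starting at 0 except for *Lars2*, where it starts below 0. *Lars2* is at 0 in every Sst male sample, *Yars2* stands at 139.8 in 1 averaged sample, and for *Dars*, *Iars* and *Tars* the averaged Pvalb sample lies among the Sst samples.

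Single samples held many of the extreme values. Among the 13 samples of Sst controls, the averaged SST0-M and SST1-M sample held the highest value for 8 members and the lowest for 17, or 67.6% of the members beside 51.0% of all genes. *Gars*, *Iars*, *Mars*, *Nars*, *Tarsl2*, *Wars2*, *Yars* and *Yars2* were the 8 highest. SS04031R, a long-titled control, was highest for 16 members, among them *Aars*, *Dars*, *Eprs*, *Qars* and *Tars*, and lowest for 1 (46.0% of the members outermost, beside 33.5% of genes). These 13 samples hold both kinds of title. Among the 6 Pvalb samples the averaged pair was outermost for 28 of 37 members (75.7%, beside 64.4% of genes). *Ears2* was at 0 in both averaged samples and at 0.567 to 3.69 FPKM elsewhere.

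In the Pvalb group, *Rars*, the arginine enzyme of the multisynthetase complex, was at 5.17, 4.30 and 4.98 FPKM in the 3 libraries with high Xist and at 10.3, 12.3 and 26.3 FPKM in PV3-M, PV6-M and the averaged pair. *Mars2*, the mitochondrial methionine enzyme, stood at 6.81, 6.54 and 6.32 FPKM in the same 3 libraries and at 1.86 and 2.32 FPKM in PV3-M and PV6-M. Outside the averaged pair, its high values were thus those with high Xist. The averaged pair, with Xist at 0.439 and 0.446 FPKM in its libraries, stood at 7.46 FPKM.

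**Figure D3:**
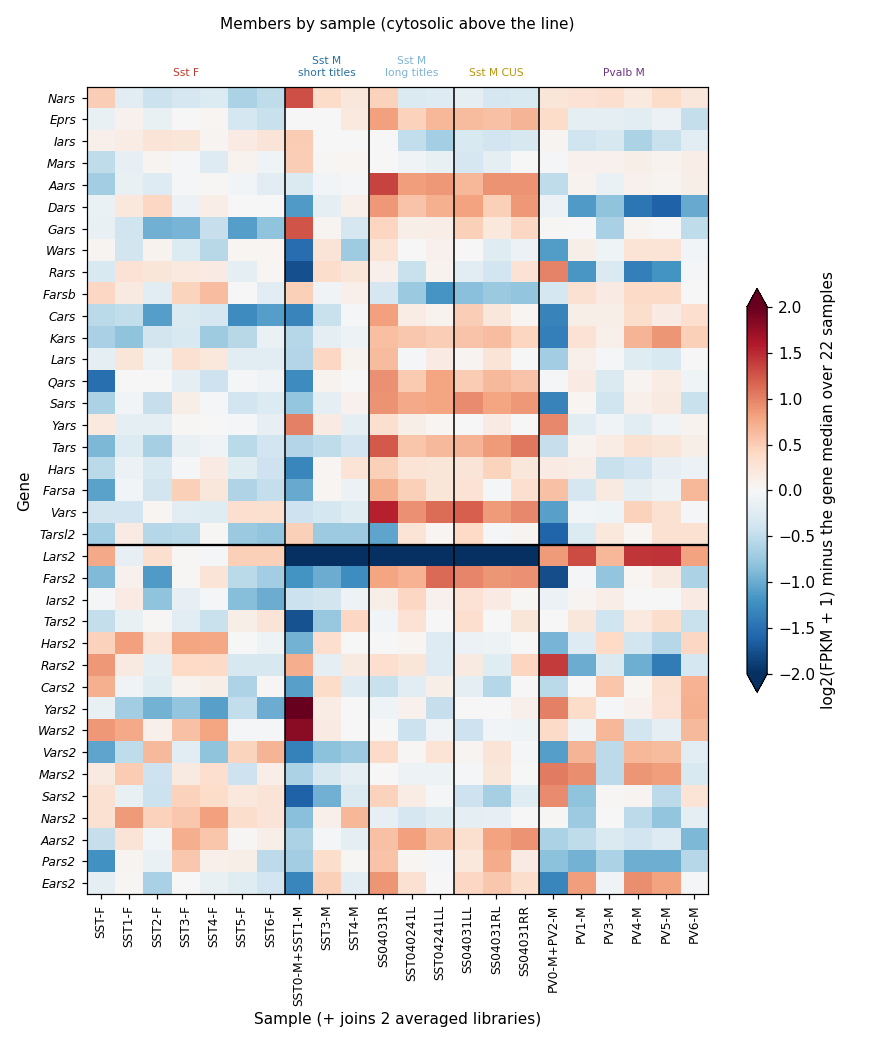
Each member in each sample as log2(FPKM + 1) minus that gene's median over the 22 samples, with groups in columns, cytosolic genes above the line and colours saturating at a difference of 2. The averaged sample of SST0-M and SST1-M is outermost among Sst controls for 25 members, and *Aars*, *Fars2*, *Tars* and *Vars* are high in all 6 long-titled samples.

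To examine sex in nonstressed Sst interneurons, the 7 females were compared with the 3 short-titled male samples. Levels were compared as log2(FPKM + 1) with limma, and a gene was called at a Benjamini-Hochberg adjusted p below 0.05 over all genes tested. Over all genes 3.41% were called. *Lars2* was the 1 member of 37 past the threshold, at 797.4 ± 184.5 FPKM (SD, n = 7) in females and listed at 0 in all 3 males. It entered the fit through the females alone and its male values were identical zeros, so its call restates the pattern described above and adds no measurement. None of the other 36 members was called by limma. The median difference was 0.01 on the log2 scale for cytosolic members and 0.45 for mitochondrial members, beside 0.05 for all genes. Without the averaged SST0-M and SST1-M sample these medians were −0.19, 0.20 and 0.01. At an unadjusted p below 0.05, 3 members, *Lars2* included, were higher in females (13.0% of genes) and 3 were lower (11.3% of genes).

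The members nearest to a call were *Nars*, *Gars* and *Yars2* on the lower side in females and *Sars2* on the higher side, and none of them passed. *Nars* ranged from 35.4 through a median of 44.1 to 78.5 FPKM in females and stood at 65.3, 72.3 and 138.0 FPKM in males. The groups overlapped through SST-F alone, and the test gave an adjusted p above the threshold (log2 fold change −0.90, SE 0.27, adjusted p = 0.0828). *Gars* ranged from 5.67 through 7.15 to 11.9 FPKM in females and stood at 10.3, 13.9 and 33.1 FPKM in males (−1.01, SE 0.32, adjusted p = 0.0954). Without the averaged pair the differences were smaller, −0.57 for *Nars* and −0.55 for *Gars*. *Yars2* ranged from 1.79 through 2.41 to 4.35 FPKM in females, below 4.97, 5.54 and 139.8 FPKM in males. Its groups did not overlap, the 1 member lower in females of which this held (4.48% of genes), beside 1 higher, *Lars2* (5.26% of genes). Its difference of −2.31 had an SE of 0.77 and an adjusted p of 0.106, and without the averaged pair it came to −0.81 (SE 0.26, adjusted p = 0.0910).

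*Sars2* is the mitochondrial serine enzyme. It ranged from 1.86 through 3.64 to 4.28 FPKM in females and stood at 0.256, 0.973 and 2.16 FPKM in males, with overlap (1.11, SE 0.31, adjusted p = 0.0670). The count rested on single libraries. Without SST4-M, *Gars*, *Sars2* and *Yars2* were also called (4 of 37, beside 7.55% of genes), and without SST-F *Nars* was also called (2 of 37, beside 12.4% of genes).

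To examine CUS in Sst males, the 3 stressed samples were compared with the 3 long-titled controls. *Lars2*, at 0 throughout, could not be tested. None of the other 36 members was called by limma (1 of 14186 genes was, 0.00705%). At an unadjusted p below 0.05, 0 members were higher (4.11% of genes) and 1 was lower (2.63% of genes). The log2 differences of the members spanned −0.63 to 0.38, with medians of −0.03 for cytosolic and 0.02 for mitochondrial genes.

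*Sars2* had the lowest difference, with 1.89, 1.44 and 2.27 FPKM after CUS against 4.29, 3.26 and 2.79 FPKM in controls. Those samples did not overlap, while the adjusted p was 0.647 (log2 fold change −0.63, SE 0.22, unadjusted p = 0.0248). No other member had groups apart, so that 1 was lower (9.39% of genes) and 0 were higher (9.33% of genes). *Farsa* stood at 10.6, 8.26 and 11.1 FPKM after CUS and at 14.7, 12.3 and 10.2 FPKM in controls (−0.29, SE 0.18, adjusted p = 0.656). On the other side were *Tarsl2* with a difference of 0.38 (SE 0.36, adjusted p = 0.713) and *Yars2* with 0.19 (SE 0.19, adjusted p = 0.734). All 3 of these overlapped between the groups. *Tarsl2* was 5.31, 3.69 and 3.97 FPKM after CUS and 1.31, 4.81 and 3.94 FPKM in controls, and without SS04031R its difference was −0.02.

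Among members with high levels, *Nars* was 46.0 ± 2.43 FPKM after CUS and 56.3 ± 17.8 FPKM in controls (SD, n = 3 each), and *Aars* was 30.3 ± 2.83 and 35.3 ± 7.55 FPKM. The higher control means came from SS04031R, with *Nars* at 76.8 and *Aars* at 44.0 FPKM. In SST040241L and SST04241LL, *Nars* was 45.7 and 46.3 FPKM and *Aars* 30.7 and 31.2 FPKM, within the CUS ranges. *Fars2* was 30.1 ± 1.01 FPKM after CUS and 29.2 ± 4.93 FPKM in controls (SD, n = 3 each), and *Eprs* was 31.9 ± 1.01 and 32.6 ± 4.23 FPKM. Summed markers of other cells moved with the stress label. The 7 astrocyte markers summed to between 516.1 and 1294 FPKM in controls and between 1849 and 2125 FPKM after CUS, and 6 oligodendrocyte markers to between 391.3 and 1284 FPKM and between 1600 and 1967 FPKM. Their part in the members' values was not tested. Set against the short-titled controls instead, 7 of 36 members were called (16.1% of genes).

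Without stress, 10 short-titled Sst samples of both sexes were compared with the 6 Pvalb samples, all labelled male. The arms are named by the labelled line. *Sst* ran from 0.238 through a median of 5.17 to 49.3 FPKM in the 11 Sst libraries. It ran from 12.3 through 21.1 to 30.5 FPKM in the 7 Pvalb libraries, so its median was higher there. *Pvalb* reached at most 1.93 FPKM in the Sst and 5.07 FPKM in the Pvalb libraries. Of 37 members 3 were called, all cytosolic, beside 10.2% of all genes. *Dars* and *Iars* were higher in Sst samples and *Tars* was lower. At an unadjusted p below 0.05, 5 members were higher (13.8% of genes) and 4 lower (13.8% of genes). No member had groups without overlap, higher (0.663% of genes) or lower (0.78% of genes). The medians were −0.12 for cytosolic and −0.23 for mitochondrial members, beside 0.01 for all genes. The mitochondrial median was −0.10 without the averaged SST0-M and SST1-M sample, and −0.04 without the Pvalb samples with high Xist.

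*Dars*, the aspartate enzyme of the multisynthetase complex, ran from 5.72 through a median of 13.75 to 18.7 FPKM in Sst samples and from 3.78 through 6.03 to 12.55 FPKM in Pvalb samples. *Iars*, of the same complex, ran from 19.4 through 21.9 to 28.2 FPKM and from 12.2 through 14.95 to 20.3 FPKM. *Tars*, the threonine enzyme, ran from 4.86 through 7.01 to 9.40 FPKM and from 6.93 through 11.0 to 12.4 FPKM. Each pair of groups overlapped, and each time the averaged Pvalb sample (12.55, 20.3 and 6.93 FPKM) lay inside the Sst range. Apart from it, the Pvalb values of *Iars* lay below all Sst values and those of *Tars* above all of them. The log2 differences were 0.95 for *Dars* (SE 0.23, adjusted p = 0.0166), 0.50 for *Iars* (SE 0.13, adjusted p = 0.0187) and −0.52 for *Tars* (SE 0.16, adjusted p = 0.0465).

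These calls depended on which libraries were used. *Dars* was no longer called without PV4-M or PV5-M (adjusted p = 0.0561 and 0.0582). *Iars* was lost without PV1-M, PV4-M or PV5-M (adjusted p = 0.0540 to 0.0659), and *Tars* was kept in 4 of the 16 fits that left out 1 sample. Without the 3 Pvalb samples with high Xist, no member was called by limma (0.0622% of genes were). Sex was unequal between the arms, since 7 of the 10 Sst samples were female and the Pvalb samples were labelled male. Against the 3 short-titled Sst males alone, the differences were 0.62 for *Dars*, 0.50 for *Iars* and −0.57 for *Tars*, and none of these passed (adjusted p = 0.453, 0.338 and 0.320, with 0.0912% of genes called).

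Without both averaged samples, a choice made after seeing the data, 13 of 37 members were called, beside 30.6% of all genes. *Dars* (1.25, SE 0.15), *Rars* (0.93, SE 0.21) and *Iars* (0.54, SE 0.10) of the multisynthetase complex were higher in Sst samples, as were the mitochondrial *Nars2* (0.93), *Rars2* (0.91), *Pars2* (0.74) and *Aars2* (0.57). *Kars* (−0.91, SE 0.16), *Cars* (−0.84, SE 0.19), *Tars* (−0.61), *Tarsl2* (−0.63), *Yars2* (−0.84) and *Ears2* (−0.64) were lower. *Kars*, the lysine enzyme, then stood at 6.32 to 10.9 FPKM in 9 Sst samples and at 12.6 to 22.4 FPKM in 5 Pvalb samples. *Cars*, the cysteine enzyme, stood at 4.36 to 11.45 FPKM and at 12.9 to 15.3 FPKM. Neither gene overlapped between the lines in this subset, in which the groups were apart for 3 members higher in Sst samples (4.46% of genes) and 4 lower (4.82% of genes). Summed markers of other cells differed between the same libraries. Excitatory neuron markers (5 genes) summed to 464.0 to 529.1 FPKM in the 5 Pvalb samples and to 43.9 to 236.6 FPKM in the 9 Sst samples, and 7 astrocyte markers to 1513 to 1933 and to 684.3 to 1251 FPKM, each without overlap. The 6 endothelial markers summed to 11.35 to 14.15 FPKM in Pvalb and to 22.4 to 113.8 FPKM in Sst samples, also without overlap, whereas 12 microglial markers, at 8192 to 8588 and 3309 to 8441 FPKM, overlapped. The part of these cells in the differences was not tested.

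**Figure D4:**
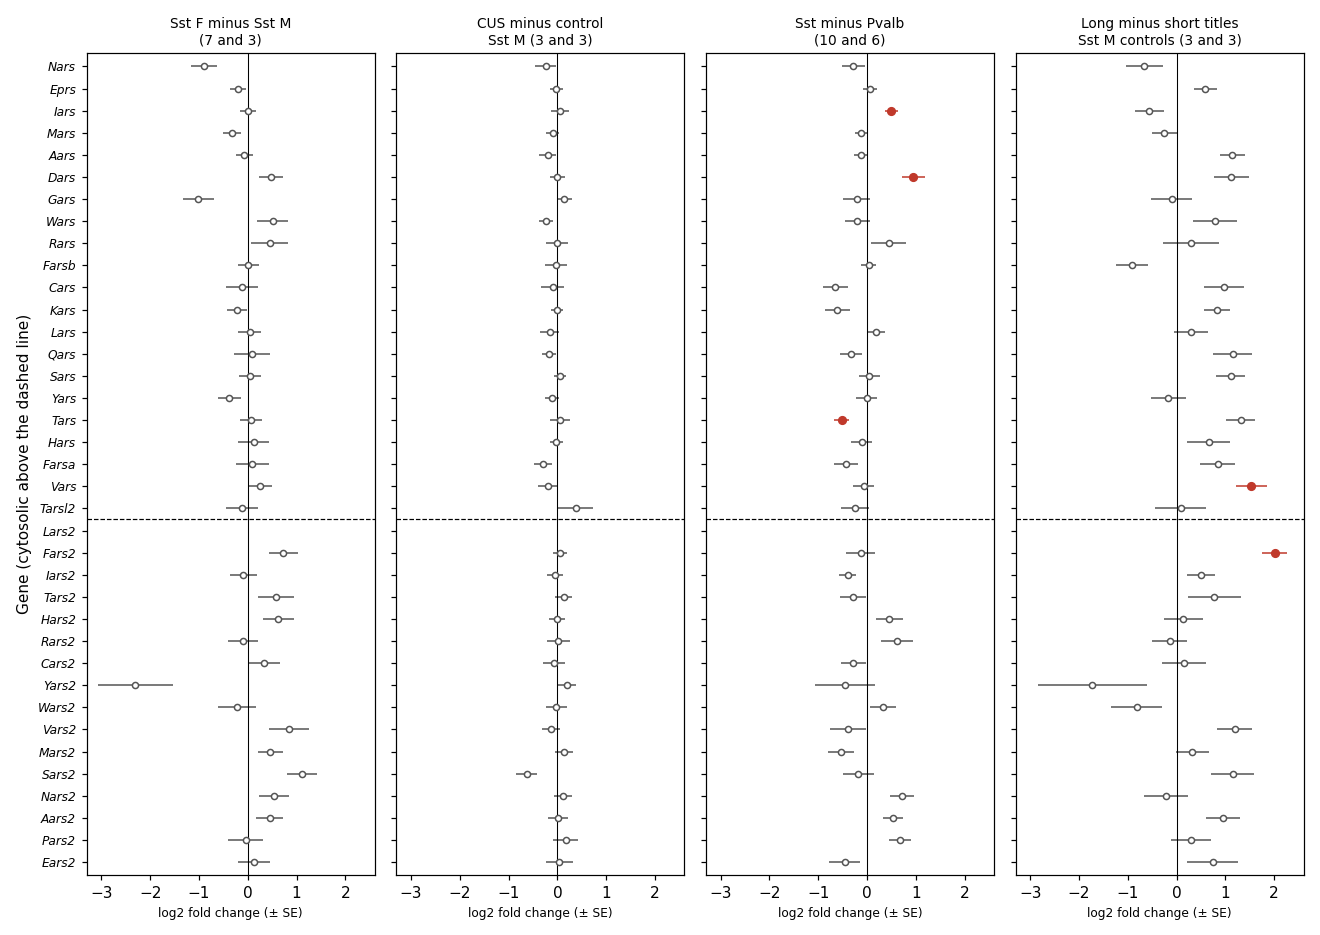
Difference of each member in 4 comparisons as a log2 fold change of FPKM + 1 with its standard error, red and filled where the adjusted p of limma was below 0.05; *Lars2* is left out because it was listed at 0 in Sst males. The CUS values lie between −0.63 and 0.38, whereas the long-titled minus short-titled values reach 2.01 for *Fars2*.

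The kind of title was also compared within 1 labelled group, because long-titled and short-titled nonstressed Sst males differed in their libraries. Of 36 members 2 were called, beside 4.11% of genes, and both were higher in long-titled samples. *Fars2* stood at 27.4, 25.5 and 34.8 FPKM in long-titled and at 7.27, 5.95 and 6.19 FPKM in short-titled samples, a log2 difference of 2.01 (SE 0.26, adjusted p = 0.0126). *Vars* stood at 14.5, 8.96 and 10.5 FPKM against 3.16, 3.48 and 2.99 FPKM (1.53, SE 0.32, adjusted p = 0.0444). Neither gene overlapped. The share of small nucleolar and Cajal-body RNA moved with them, 53.5 to 60.3% of FPKM against 3.38 to 5.07%, and its part in these differences was not tested.

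Over all 36 members, *Fars2* and *Vars* included, higher values in long-titled samples were the more frequent. At an unadjusted p below 0.05, 13 members were higher in long-titled samples (11.1% of genes) and 1 lower (12.4% of genes). The groups did not overlap for 16 higher members (16.4% of genes) and 2 lower ones (17.0% of genes), which were *Farsb* and *Mars*. The median difference was 0.66 for cytosolic, 0.32 for mitochondrial and −0.00 for all genes, and without the averaged pair 0.49, 0.19 and −0.03. *Tars* (1.31, SE 0.29, adjusted p = 0.0511) and *Aars*, the alanine enzyme (1.14, SE 0.26, adjusted p = 0.0569), came next. *Aars* stood at 44.0, 30.7 and 31.2 FPKM against 16.1, 16.4 and 13.4 FPKM, without overlap. *Farsa* and *Farsb* encode the subunits of 1 phenylalanine enzyme and had differences of opposite sign that did not pass, *Farsa* with 0.84 (adjusted p = 0.214) and *Farsb* with −0.92 (adjusted p = 0.148). *Fars2* remained called in 2 of the 6 fits that left out 1 sample (adjusted p = 0.00583 to 0.0932) and *Vars* in 1 (0.0185 to 0.198). Without SST3-M, SST4-M, SST040241L or SST04241LL no member was called by limma (0.381 to 0.976% of genes were). Without the averaged pair 5 were (13.7% of genes), with *Aars*, *Sars* and *Tars* in addition.

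Promoters were searched because ATF4 acts on synthetase genes through a short element. The letters TGATGNAA, read on both strands, were looked for in RefSeq promoter windows (GRCm38.p6, 250 bases before to 50 after each start). They occurred in 3.97% of 32851 windows. Among the members 27 genes had a window. The letters were found for 5 of 13 cytosolic genes, *Aars*, *Gars*, *Iars*, *Tars* and *Yars*, and for 0 of 14 mitochondrial genes. Stretches around the element are shown for the genes in which it lay before the start, with the matching letters in capitals (all 3 match on the opposite strand, so that the capitals read as the reverse complement):
*Gars*, chr6:55037945-55038000, forward strand: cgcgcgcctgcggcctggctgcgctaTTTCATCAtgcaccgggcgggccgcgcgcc
*Aars*, chr8:111033704-111033763, forward strand: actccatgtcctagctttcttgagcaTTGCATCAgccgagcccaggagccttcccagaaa
*Tars*, chr15:11399659-11399699, reverse strand: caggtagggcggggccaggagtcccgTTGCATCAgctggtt

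The 5 genes that carry these letters differed in direction. Between long-titled and short-titled males, *Tars* (1.31) and *Aars* (1.14) were the higher ones, while *Gars* (−0.10), *Yars* (−0.17) and *Iars* (−0.56) had differences below 0. In the averaged SST0-M and SST1-M sample, *Gars* (33.1 FPKM), *Iars* (28.2 FPKM) and *Yars* (22.6 FPKM) were at their highest among Sst controls, but *Aars* (13.4 FPKM) and *Tars* (6.26 FPKM) were not. Of all genes, 51.0% had their highest or lowest value among Sst controls in that sample. *Atf4* itself was 312.6 FPKM in that sample and 54.7 to 134.4 FPKM in the others. A match of letters is a description of the sequence and not a binding site.

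Of the 37 members, 1 (*Mars*) was placed through an older symbol. In the RefSeq annotation 17 overlap another gene, such as *Hars* with *Hars2*, *Aars* with *Ddx19b* and *Wars* with *Wdr25*, and *Iars* and *Sars* each hold small nucleolar RNA genes. Whether strand was used in counting is not given in the sources used here, so the values of these members are uncertain to that extent.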

How the data were processed

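FPKM values were used as deposited by the authors, in 1 table of 23993 genes and 24 libraries. Per the labels they were made with TopHat2, Cufflinks and Cuffdiff on mm10, whereas the methods of the study name TopHat2 on mm9, HISAT2 on mm10 with StringTie, and ComBat correction of batches; which of these gave the deposited values, and whether ComBat was applied to them, is not given in the sources used here. The labels give polyA RNA as the molecule and the methods a ribosomal depletion kit. No read counts accompany the FPKM, so the depth behind each value and its counting error are not given.

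Near-identical libraries were averaged. Log2(FPKM + 1) values were fitted by limma 3.58.1 under R 4.3.3 (trended, robust, two-sided) for each gene averaging more than 0.4 FPKM in a comparison. Raw p-values were adjusted by Benjamini-Hochberg across every gene fitted, and adjusted values below 0.05 were calls. A fold change on that scale understates the change of low genes. The procedure was tested on simulated data. Alternatives were pseudocounts of 0.1 and 5, other filters, median scaling, quantile normalization, 1 fit over all groups, other control sets, separate libraries, a replicate block, and leaving out each sample.

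Values are given for members called (or, where none was, the 2 largest and 2 smallest differences), the 3 highest and 3 lowest of each class, *Lars2*, *Yars2*, *Gars*, *Kars*, members with an outlying sample, and up to 4 called genes of each related list. Members, lists and tests were chosen with earlier results of these data known. Other genes named (among them *Rars*, *Mars2*, *Cars*, *Aars* and *Farsb*) were chosen after their values were seen. Positions and promoters come from RefSeq (GRCm38.p6, the assembly of mm10).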

Additional observations from a re-analysis of the deposited data

Results flagged for a closer look

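Over 111 sets of samples (each member in the Sst females, the Sst male controls and the Pvalb males), 14 members had 1 sample far from the others by Dixon's test on log2(FPKM + 1). Chance alone gives about 1 such sample in 20 sets. The share was 12.6% for the members beside 15.6% for all 14566 expressed genes. Each of the 14 involved SST-F or 1 of the averaged pairs.

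In the Sst females, SST-F had *Aars* at 9.98 FPKM (13.9 to 17.0 in the other 6), *Qars*, the glutamine enzyme of the multisynthetase complex, at 3.18 FPKM (7.88 to 10.95) and *Nars* at 78.5 FPKM (35.4 to 47.8). Among Sst male controls, the averaged SST0-M and SST1-M sample had the histidine enzyme *Hars* at 3.20 FPKM (9.59 to 13.4 in the others), the methionine enzyme *Mars* at 25.3 FPKM (15.8 to 18.2), the mitochondrial tryptophan enzyme *Wars2* at 17.75 FPKM (3.01 to 5.05) and *Yars2* at 139.8 FPKM (3.29 to 5.54).

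In the Pvalb group, the averaged PV0-M and PV2-M sample was low for 6 cytosolic genes. These were *Cars* at 4.10 FPKM (12.9 to 15.3 in the other 5), *Kars* at 3.92 FPKM (12.6 to 22.4), *Tars* at 6.93 FPKM (10.5 to 12.4), *Tarsl2* at 0.584 FPKM (2.98 to 4.94), *Vars* at 1.49 FPKM (3.96 to 6.25) and the tryptophan enzyme *Wars* at 5.53 FPKM (12.3 to 16.0). *Yars* was high there, at 21.9 FPKM (at most 11.2 in the other 5).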

How the results depend on the processing

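Numbers of members called are given here by setting, with the share of all genes called in brackets. For sex in Sst samples (1 called), a fit over all samples in 5 groups called 5 (8.53%), separate near-identical libraries 5 (17.7%), all control Sst males 2 (11.7%) and long-titled males alone 16 (41.5%), and leaving out 1 sample gave 1 to 4. For CUS (0 called), short-titled controls gave 7 (16.1%). For line (3 called), the 5-group fit called 7 (18.9%), separate libraries 1 (9.45%), Sst females alone 8 (25.1%), omission of the Pvalb samples with high Xist 0 (0.0622%) and, chosen after seeing the data, omission of both averaged samples 13 (30.6%). Short-titled Sst males alone gave 1 (0.0912%), which was *Lars2*, listed at 0 in those males, and none of *Dars*, *Iars* or *Tars*. Leaving out 1 sample gave 0 to 7, the latter without either averaged pair (18.1 and 19.9%). For kind of title (2 called), no filter gave 1 (2.18%), quantile normalization 5 (7.80%), the 5-group fit 12 (25.4%), separate libraries 7 (12.5%) and all short-titled Sst controls 12 (26.2%), and leaving out 1 sample gave 0 to 5. The cause was not tested.

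Some differences changed sign. *Sars2* for sex was −0.04 against long-titled males. For CUS, *Farsa* was 0.14 against all control males, 0.56 against short-titled controls and 0.31 against controls of both sexes. *Yars2* was −0.68 and −1.54 against all and short-titled male controls, *Sars2* was 0.52 against the latter, and *Tarsl2* ran from −0.02 to 0.64 as single samples were left out. *Yars2* for line was 1.17 against short-titled Sst males. Of 505 alternative values of single named genes, 9 changed sign, 70 lost and 20 gained a call.

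A replicate block on the number in the titles could use 6 samples for sex and 15 for line. With it, 1 member was called for sex, *Lars2* (0.077% of genes). For line 3 were called, *Dars*, *Iars* and *Pars2* (8.24% of genes), while *Tars* was lost (adjusted p = 0.0681 in limma). *Atf4* for sex and *Eef1e1* for line were lost as well (adjusted p = 0.229 and 0.0927). Deviations of samples with the same number had correlations of −0.04 to −0.02 for sex and −0.04 to 0.18 for line. The value of 0.18, for SST3-M with PV3-M, was the highest of all pairs for line. Deviations were taken from the means of small groups, so the correlations cannot decide whether the numbers mark pairs. In fits that leave 1 arm with few samples, the rest are assumed to vary alike.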

Other observations

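The genes that work beside the synthetases were counted in the same way. Of 15 charging partners (complex scaffolds, tRNA export and editing factors, and the enzymes that make mitochondrial glutaminyl-tRNA), 14 could be tested, and 1 was called over the 4 comparisons, for line, where 10.2% of all genes were. *Eef1e1*, a small scaffold protein of the multisynthetase complex, ran from 0.720 to 9.27 FPKM in the 10 short-titled Sst samples and from 0 to 2.35 FPKM in the 6 Pvalb samples, which overlapped (limma, log2 fold change 1.21, adjusted p = 0.0470). It stayed called in 6 of the 16 fits that left out 1 sample, with adjusted p up to 0.133, and its difference was 0.48 against short-titled Sst males alone and 0.69 without the Pvalb samples with high Xist (adjusted p = 0.619 and 0.506).

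Of 15 genes of the ATF4 program, 13 could be tested, of which 1 was called for sex (3.41% of all genes) and 3 for line (10.2%). *Atf4* was the 1 gene called for sex, at 65.8 ± 11.0 FPKM (SD, n = 7) in Sst females and at 134.4, 127.1 and 312.6 FPKM in the short-titled males, without overlap, as for 4.48% of genes (limma, −1.41, SE 0.26, adjusted p = 0.0210). It stayed called in 5 of 10 fits that left out 1 sample, with adjusted p up to 0.0546. It was lost with the replicate block, which used 6 samples (limma, adjusted p = 0.229). For line, *Shmt2*, a mitochondrial enzyme of serine and glycine metabolism, was higher in Sst samples (6.37 to 10.5 FPKM against 2.41 to 5.34 FPKM, no overlap, as for 0.663% of genes, 1.07, adjusted p = 0.00302). *Slc7a11*, the cystine transporter, was also higher (0.78, adjusted p = 0.0180), while *Asns*, which makes the asparagine that *Nars* uses, was lower (0 to 1.84 FPKM against 0.358 to 5.74 FPKM, −1.54, adjusted p = 0.0106). All 3 were lost without the Pvalb samples with high Xist, at 0.91, 0.53 and −0.86 (adjusted p = 0.109, 0.346 and 0.316), and against short-titled Sst males alone, at 1.07, 0.57 and −1.56 (adjusted p = 0.230, 0.431 and 0.282). No gene of either list was called by limma for CUS (0.00705% of all genes) or for kind of title (4.11%). At an unadjusted p below 0.05 these lists gave 2 genes for CUS, beside 4.11% of all genes higher and 2.63% lower. They gave 3 for kind of title, beside 11.1% higher and 12.4% lower.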
